A study of Mus musculus with 12 samples.

Results

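The HoxB cluster holds the *Hox* genes of mouse chromosome 11, and 9 of them (*Hoxb1*, *Hoxb2*, *Hoxb3*, *Hoxb4*, *Hoxb5*, *Hoxb6*, *Hoxb7*, *Hoxb9* and *Hoxb13*) are described here in ES cells that lost Ring1B or kept only a catalytically defective form. They were found as the probe sets annotated to these 9 symbols alone. This gave 11 of the 45037 probe sets that were not controls, with a pair each for *Hoxb3* and *Hoxb4* and 1 for each other gene. All 9 genes passed the filter on low signal and stand among 16432 genes tested.

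*Hox* genes encode homeodomain transcription factors that give cells along the head-to-tail axis their regional identity. In the embryo the genes at the *Hoxb1* end of the cluster are transcribed first and farthest forward, and those at the *Hoxb13* end last and nearest the tail. In ES cells the cluster is held silent by Polycomb proteins, and Ring1A and Ring1B are the E3 ligases of Polycomb repressive complex 1 that place mono-ubiquitin on histone H2A (H2AK119u1).

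RNA was hybridised to Affymetrix mouse arrays from 6 ES cell lines, with 1 OHT+ and 1 OHT- array per line, 12 arrays in all. Every line was a stable transfectant of the same *Ring1A*-/-; *Ring1B* fl/fl; Rosa26::CreERT2 cells of 129/B6 hybrid background, so Ring1A was missing from the OHT- arrays too. They were 1 mock line with an empty vector, 2 lines with Ring1B (I53S) (#1 and #4), 1 line with Ring1B (I53A) (#1) and 2 lines with WT Ring1B (#1 and #3). OHT (4-hydroxytamoxifen, 800 nM for 24 h) activates the Cre fusion that removes endogenous *Ring1B*, and RNA was taken on day 2. Both substitutions lie on the surface that binds the E2 enzyme, and the 3 lines that carry them form the mutant class. The constructs were driven by the CAG promoter. Each transfectant is a selected line, the mock and I53A classes have 1 line each, and the cells were grown either on feeder fibroblasts or on gelatin, with no statement of which was used for which array.

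The 5 probe sets of *Rnf2*, the gene of Ring1B, had log2 changes between -0.50 and -0.15 in the mock line. Their place relative to the deleted exons is not known here, and they give no check of the deletion. The 10 ES cell markers, such as *Pou5f1* and *Nanog*, had a mean log2 signal between 10.78 and 11.12 on every array. Their median change with OHT was -0.04 in the mock line, -0.18, -0.24 and -0.15 in I53S #1, I53S #4 and I53A #1, and 0.01 and 0.07 in WT #1 and WT #3. Among them, *Pou5f1* had -0.49, *Sox2* -0.59 and *Klf4* 1.01 in the mock line. Deposited values were heavily tied, with 2815 to 3553 distinct values per array, and between log2 3 and 5, where most HoxB signals lie, neighbouring values were 0.05 to 0.06 apart. *Hoxb1* exceeded the filter's threshold of 3.94 only on the mock OHT+ array, *Hoxb5* on 3 of 12 arrays and *Hoxb6* on 4 of 12. Signals are log2 values after quantile normalization, and a change is OHT+ minus OHT- within a line, tested in limma with the 2 arrays of a line paired and p-values adjusted by Benjamini-Hochberg over all 16432 genes.

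RefSeq (GRCm38.p6) promoters, from 250 bases before to 50 after the start, were at hand for 2 of the 9 members, *Hoxb4* and *Hoxb1*. Both are printed, whatever their changes, since no other member had a promoter at hand. Capitals mark the letters TGATNNAT, searched on both strands, which are those of the composite element bound by PBX and HOX proteins. *Hoxb4* lies on the + strand at chr11:96318017-96318316 and *Hoxb1* on the + strand at chr11:96365508-96365807.
Hoxb4: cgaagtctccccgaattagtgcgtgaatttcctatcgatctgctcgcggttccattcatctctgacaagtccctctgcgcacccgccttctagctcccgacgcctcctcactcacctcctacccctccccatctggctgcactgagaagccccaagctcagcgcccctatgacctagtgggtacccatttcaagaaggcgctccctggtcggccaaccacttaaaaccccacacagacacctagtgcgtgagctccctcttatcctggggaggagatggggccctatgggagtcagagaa
Hoxb1: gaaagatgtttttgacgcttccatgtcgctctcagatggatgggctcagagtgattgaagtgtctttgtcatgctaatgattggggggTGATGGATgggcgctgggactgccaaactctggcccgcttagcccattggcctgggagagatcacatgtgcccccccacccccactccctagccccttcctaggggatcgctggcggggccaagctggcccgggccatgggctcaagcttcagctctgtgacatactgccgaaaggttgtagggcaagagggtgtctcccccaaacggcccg
The *Hoxb1* window held 1 match, at bases 89 to 96, and the *Hoxb4* window held none. Of 32851 promoters of the same length, 8.85% held a match. The windows held 14 CpG in *Hoxb4* and 10 in *Hoxb1*, against a median of 7 over all promoters.

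In the mock line each of the 9 members had a higher signal with OHT than without, as did 50.5% of all genes, whereas the probe set shared by *Hoxb8* and *Hoxb7* had a change of -1.28. The changes ran between 0.26 for *Hoxb7* and 2.26 for *Hoxb13*, with a median of 1.07 (1.20 without *Hoxb1*) against 0.00 over all genes. *Hoxb1* entered the test through its mock OHT+ array alone, so counts over the other 8 members, chosen after the data were seen, stand beside those it belongs to. The change was above 1 for 5 of 9 members (*Hoxb13*, *Hoxb6*, *Hoxb4*, *Hoxb2* and *Hoxb1*) and for 3.85% of all genes (4 of 8 without *Hoxb1*). Only *Hoxb6* passed the test (1 of 9, against 1.29% of all genes called higher and 0.383% called lower), with *Hoxb13* and *Hoxb2* at adjusted p = 0.0536 and 0.0544 in limma. The unadjusted p was under 0.05 for 6 of 9 members (5 of 8 without *Hoxb1*), against 19.9% of all genes. The mock change was the highest of the 6 lines for 6 of 9 members (5 of 8), again against 19.9% of all genes. The mock class is 1 line and its spread was taken from the other 5 lines. In these bulk RNA samples more cells with a transcript and more transcript per cell cannot be told apart.

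**Figure D1:**
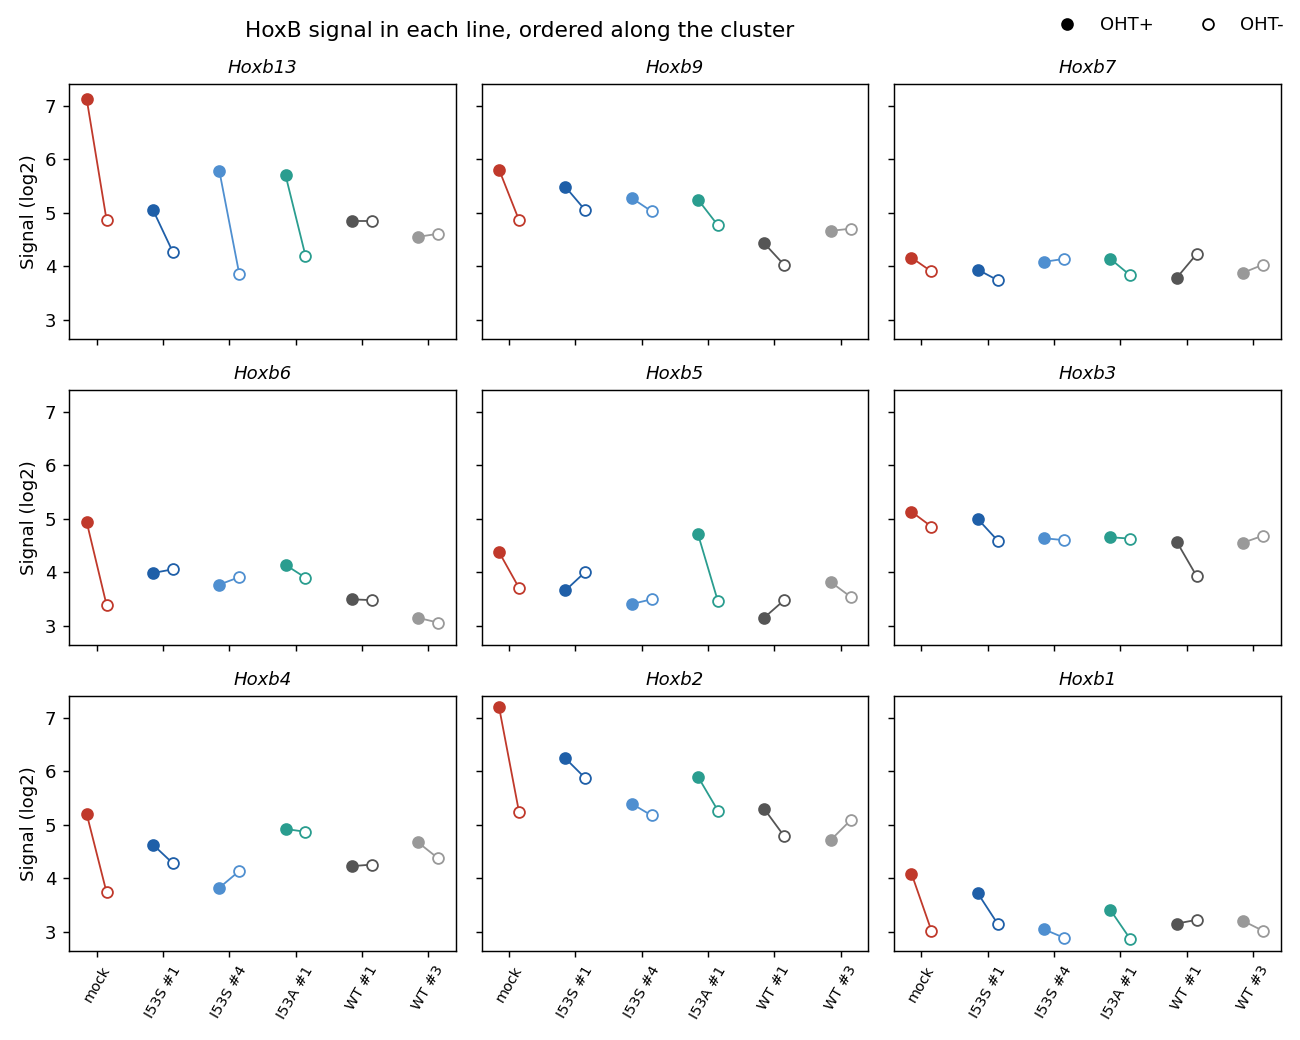
Quantile-normalized log2 signal (y axis) of the 9 HoxB genes in each of the 6 lines (x axis), panels ordered along the cluster from the *Hoxb13* end. Each point is 1 array, filled for OHT+ and open for OHT-, joined within a line. *Hoxb13* and *Hoxb2* read 7.13 and 7.20 on the mock OHT+ array, above every other array.

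At the posterior end of the cluster, *Hoxb13*, which acts in the tail bud and the prostate, had the widest response. It read 7.13 on the mock OHT+ array against 4.87 on the mock OHT- array. In the mutant lines it read 5.05, 5.79 and 5.70 with OHT (I53S #1, I53S #4, I53A #1) against 4.27, 3.86 and 4.20 without. In the WT lines #1 and #3 it read 4.84 and 4.55 with OHT against 4.84 and 4.61 without. All 3 OHT+ mutant arrays lay above all 3 OHT- mutant arrays, and above all 4 WT arrays. The change in the mutant lines averaged 1.41 ± 0.57 (SD, n = 3), which is 2.65-fold, with an SE of 0.21 and an adjusted p of 0.0216 from limma. It was the only one of the 9 members that passed in the mutant lines, where 4.91% of all genes were called higher and 1.55% lower. Tested as a single probe set among 30374, it passed as well (adjusted p = 0.0343), against 2.9% of probe sets called higher. In the mock line 0 of 30374 probe sets passed (0%), those of the members included. For the mutant class, the unadjusted p in limma was under 0.05 for 3 of 9 members (*Hoxb13*, *Hoxb9* and *Hoxb1*), against 23.7% of all genes. Without *Hoxb1* this was 2 of 8. The *Hoxb13* change was 0.79, 1.92 and 1.50 in I53S #1, I53S #4 and I53A #1, and 0.00 and -0.06 in WT #1 and WT #3. Without I53S #4 the mutant value was 1.15 (adjusted p = 0.0823), and without I53A #1 it was 1.36 (adjusted p = 0.108).

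*Hoxb9*, a gene of thoracic patterning, was measured at 5.81 on the mock OHT+ array and 4.87 on the mock OHT- array. The mutant lines gave 5.49, 5.28 and 5.25 with OHT against 5.05, 5.03 and 4.77 without. WT #1 and WT #3 gave 4.43 and 4.66 with OHT against 4.03 and 4.70 without. All 3 mutant lines were thus higher with OHT (by 0.44, 0.25 and 0.48), and WT #1 had a change of 0.40, within their range. The mock change of 0.94 had an adjusted p of 0.0933 in limma, and the mutant mean of 0.39 had one of 0.121.

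*Hoxb6*, which marks the posterior trunk and lateral plate mesoderm, had a higher signal with OHT in the mock line and changes near 0 in the mutant lines. It read 4.94 on the mock OHT+ array against 3.39 on the mock OHT- array. The mutant lines read 3.99, 3.77 and 4.14 with OHT against 4.06, 3.91 and 3.90 without. WT #1 and WT #3 read 3.50 and 3.15 with OHT against 3.48 and 3.06 without. The mock OHT+ array lay above all others and the OHT+ and OHT- mutant arrays overlapped. The mock change of 1.55 was 2.93-fold (SE 0.19, adjusted p = 0.0366 in limma), and the mutant changes were -0.07, -0.14 and 0.24. With any 1 of the 5 other lines left out, the mock call was lost, at an adjusted p between 0.0697 (without I53S #1) and 0.0830 (without I53S #4), and then 0 genes of 16432 were called in the mock line.

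*Hoxb7* and *Hoxb5*, the members on either side of *Hoxb6*, had small or uneven changes. *Hoxb7*, a trunk gene, stayed between 3.74 and 4.23 on all 12 arrays. Its change was 0.26 in the mock line, between -0.05 and 0.31 in the mutant lines, and -0.44 and -0.15 in the WT lines. *Hoxb5*, which acts in neural crest of the gut and in shoulder position, had a change of 0.67 in the mock line and 1.25 in I53A #1, but -0.35 and -0.09 in the I53S lines and -0.33 and 0.28 in the WT lines. The mutant lines disagreed on its direction, and its SE in the mock line was 0.55. Neither gene passed in any class.

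*Hoxb4*, known for expanding blood stem cells when overproduced, and *Hoxb3*, a hindbrain gene, have overlapping gene models in RefSeq. For *Hoxb4*, the mean of its probe sets was 5.21 on the mock OHT+ array and 3.74 on the mock OHT- array. In the mutant lines it was 4.63, 3.82 and 4.92 with OHT against 4.28, 4.14 and 4.87 without. In WT #1 and WT #3 it was 4.23 and 4.67 with OHT against 4.26 and 4.37 without. The mock line was thus the lowest of the 6 lines before OHT, as for 19.2% of all genes, and the highest after. Both probe sets were higher with OHT in the mock line, by 1.25 (1451761_at) and 1.69 (1460379_at), and the gene's change of 1.47 had an adjusted p of 0.0639 in limma.

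The probe sets of *Hoxb3* differed from each other. The one named 1427605_at had a change of 0.44 in the mock line, of -0.45, -0.20 and 0.30 in I53S #1, I53S #4 and I53A #1, and of -0.10 and 0.08 in the WT lines. The other, 1456229_at, had a change of 0.11 in the mock line, of 1.26, 0.26 and -0.25 in the mutant lines, and of 1.39 and -0.34 in WT #1 and WT #3. The value of 1.39 came with a signal of 2.97 on the WT #1 OHT- array, the lowest of the 12 for that probe set. The averaged *Hoxb3* change was 0.28 in the mock line (adjusted p = 0.659 in limma).

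**Figure D2:**
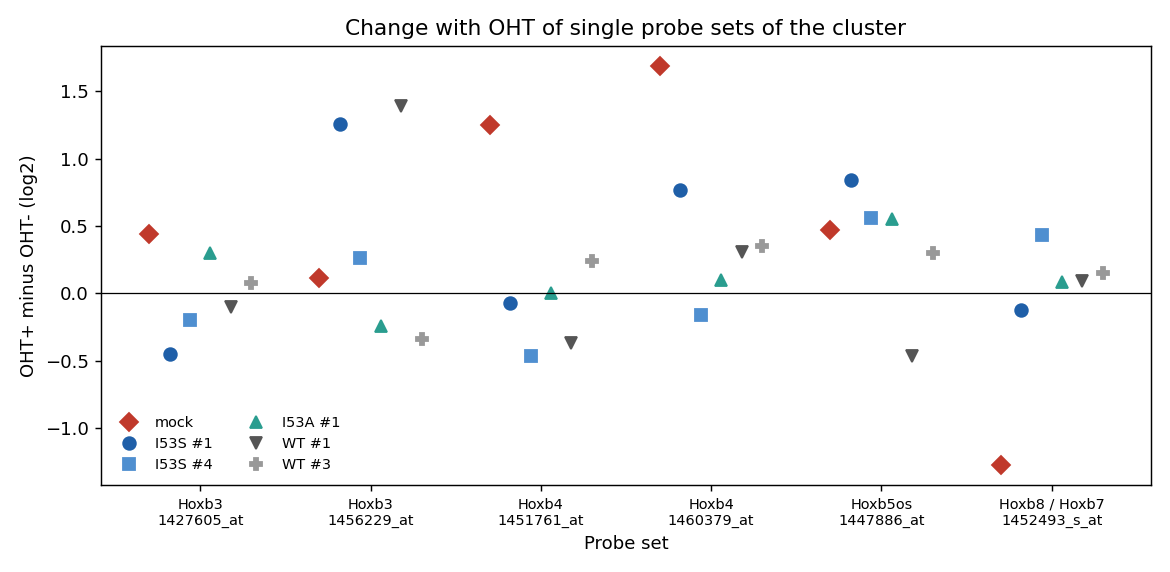
Change with OHT (y axis, log2) in the 6 lines, 1 point per line, for the single probe sets of *Hoxb3* and *Hoxb4*, for *Hoxb5os* and for a probe set shared by *Hoxb8* and *Hoxb7* (x axis). Both *Hoxb4* probe sets are highest in the mock line, at 1.25 and 1.69, whereas those of *Hoxb3* order the lines differently.

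At the anterior end, *Hoxb2*, which patterns the hindbrain segment of the facial motor neurons, gave 7.20 on the mock OHT+ array and 5.24 on the mock OHT- array. In the mutant lines it gave 6.24, 5.40 and 5.90 with OHT against 5.87, 5.18 and 5.27 without. In WT #1 and WT #3 it gave 5.30 and 4.71 with OHT against 4.79 and 5.09 without. The mock OHT+ array was the highest of the 12. The mutant changes of 0.37, 0.22 and 0.63 overlapped with the WT changes of 0.51 and -0.37. The mock change of 1.95 was 3.87-fold (SE 0.32).

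*Hoxb1*, which specifies the same hindbrain segment, had weak signals throughout. It read 4.09 on the mock OHT+ array and 3.02 on the mock OHT- array. The mutant lines read 3.72, 3.05 and 3.41 with OHT against 3.15, 2.89 and 2.86 without. WT #1 and WT #3 read 3.15 and 3.20 with OHT against 3.22 and 3.02 without. The OHT+ arrays of the mock line, I53S #1 and I53A #1 lay above the other 9. The change was 1.07 in the mock line (adjusted p = 0.0760) and averaged 0.42 in the mutant lines (adjusted p = 0.106), both in limma. Since this gene passed the filter through the mock OHT+ array alone, its mock value had to be high to be tested.

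**Figure D3:**
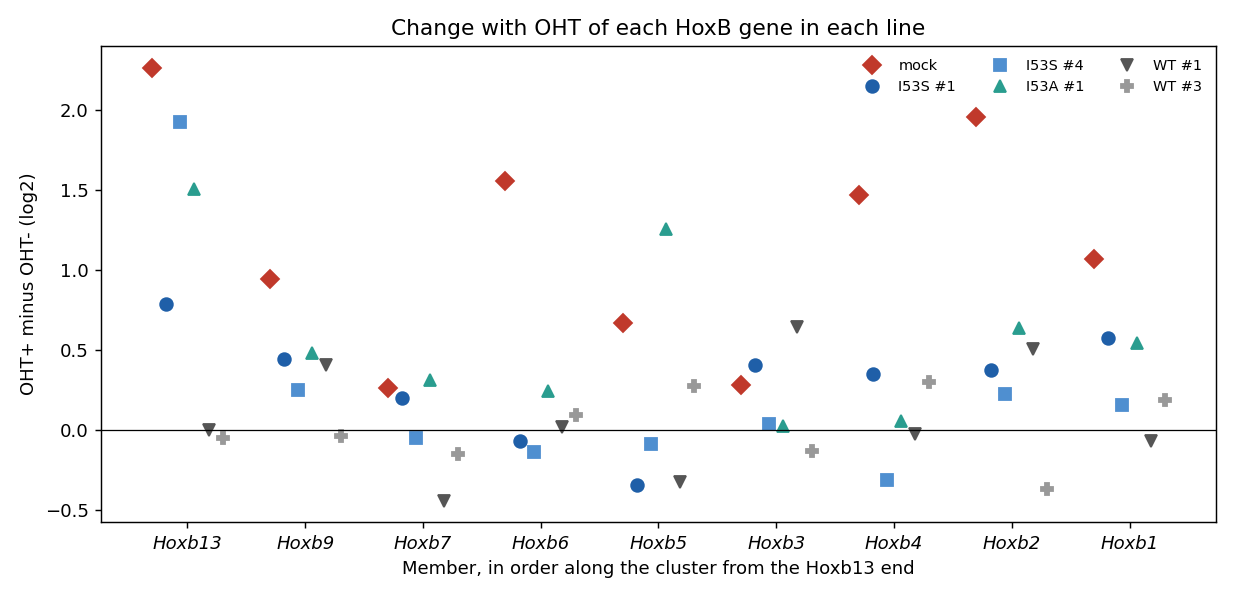
Change with OHT (OHT+ minus OHT-, y axis, log2) of each HoxB gene in order along the cluster (x axis), 1 point per line. The mock line is the highest for 6 of 9 genes (5 of 8 without *Hoxb1*), and for *Hoxb13* the 3 mutant lines (0.79 to 1.92) lie above both WT lines.

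Along the cluster, from the *Hoxb13* end, the changes of the mock line were 2.26, 0.94, 0.26, 1.55, 0.67, 0.28, 1.47, 1.95 and 1.07. The 3 lowest were those of *Hoxb7*, *Hoxb3* and *Hoxb5*. The order is that of RefSeq starts, in which *Hoxb3* comes before *Hoxb4*. The mutant lines had a high mean at *Hoxb13* alone, and their means for the other 8 genes lay between 0.01 and 0.42. The median change over the 9 members was 1.07 in the mock line, or 1.20 without *Hoxb1*. Over all 9 it was 0.37, 0.03 and 0.48 in I53S #1, I53S #4 and I53A #1. In WT #1 and WT #3 it was 0.00 and -0.04.

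With WT Ring1B, no HoxB gene passed the test (0 of 9, against 0% of all genes in either direction), and the unadjusted p in limma was under 0.05 for 0 of 9 members and 7.61% of all genes. Only *Hoxb6* was higher with OHT in both WT lines (1 of 9, against 27.2% of all genes). The fitted changes ran from -0.30 for *Hoxb7* to 0.26 for *Hoxb3*. For *Hoxb13* the WT value was -0.03 with a 95% interval from -0.67 to 0.61.

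The comparison of mutant with WT lines sets the changes with the ligase-defective forms beside those with WT Ring1B. The change was higher in all 3 mutant lines than in both WT lines for 2 of 9 members, *Hoxb13* and *Hoxb7*, against 16.1% of all genes. *Hoxb13* differed by 1.43 (95% interval 0.61 to 2.26, adjusted p = 0.195 in limma), and *Hoxb1* by 0.37 (interval -0.11 to 0.84), or 0.24 without WT #1. No member passed, and 0% of all genes did. At an unadjusted p under 0.05 stood *Hoxb13* and *Hoxb7*, 2 of 9 members, against 12.6% of all genes.

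The comparison of the mock line with the mutant lines sets the changes with an empty vector beside those with the defective forms. The mock class is 1 selected line, so a difference between lines and an effect of the protein cannot be told apart. The mock change exceeded that of every mutant line for 6 of 9 members (5 of 8 without *Hoxb1*), against 27.7% of all genes. The difference was 1.54 for *Hoxb6* (95% interval 1.01 to 2.07, adjusted p = 0.485), 1.55 for *Hoxb2* (0.64 to 2.45, adjusted p = 0.502) and 1.44 for *Hoxb4* (0.70 to 2.17, adjusted p = 0.502) in limma. For *Hoxb1* it was 0.64 (interval 0.04 to 1.24) and for *Hoxb13* 0.86 (interval -0.19 to 1.90), or 0.55 without I53S #1. No member passed after adjustment, and 0% of all genes did. At an unadjusted p under 0.05 stood 4 of 9 members (*Hoxb6*, *Hoxb4*, *Hoxb2* and *Hoxb1*, thus 3 of 8 without the last), against 8.05% of all genes.

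Against the WT lines, the mock change was higher than in both for 8 of 9 members, the exception being *Hoxb3*, and for 7 of 8 without *Hoxb1*, against 38% of all genes. The difference was 2.29 for *Hoxb13* (95% interval 1.18 to 3.40), 1.89 for *Hoxb2* (0.92 to 2.85), 1.50 for *Hoxb6* (0.94 to 2.06), 1.33 for *Hoxb4* (0.55 to 2.12) and 1.01 for *Hoxb1* (0.37 to 1.64). Adjusted p-values of these 5 lay between 0.126 and 0.205 in limma, and again no member passed, against 0% of all genes. The unadjusted p was under 0.05 for these 5 and *Hoxb9*, 6 of 9 members (5 of 8 without *Hoxb1*), against 14.4% of all genes. These contrasts share the mock or mutant lines with each other.

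Levels before OHT were compared in a separate fit of the OHT- arrays, without pairing. No member differed there between mutant and WT lines after adjustment, and 0% of all genes did. At an unadjusted p under 0.05 stood *Hoxb6*, *Hoxb9* and *Hoxb13*, 3 of 9 members, against 5.25% of all genes. *Hoxb6* was higher in the mutant lines by 0.68 (95% interval 0.25 to 1.12, adjusted p = 0.886 in limma) and *Hoxb9* by 0.58 (0.04 to 1.13, adjusted p = 0.945). The *Hoxb9* value was 0.24 without WT #1, 0.92 without WT #3 and 0.99 with values as deposited, where the median over all genes was 0.28. *Hoxb13* was lower, with a difference of -0.62 (interval -1.06 to -0.17, adjusted p = 0.894), and with values as deposited it had -0.18. All 3 mutant lines lay above both WT lines for 3 of 9 members (*Hoxb9*, *Hoxb6* and *Hoxb2*) and below for 1, *Hoxb13*, against 10.2% of all genes in each direction. For *Hoxb13* the OHT+ mutant arrays, at 5.05 to 5.79, lay above the OHT- WT arrays, at 4.61 and 4.84, as well.

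The other *Hox* clusters differed in how many genes passed. In the mock line 6 of 7 *HoxD* genes, 2 of 7 *HoxA* genes and 1 of 7 *HoxC* genes were called higher, beside 1 of 9 in HoxB and 1.29% of all genes. In the mutant lines the counts were 6, 2 and 3 of 7, beside 1 of 9 and 4.91%, and none passed in the WT lines. The signal of *Hoxd3*, called in the mock line, exceeded the filter's threshold only on the mock OHT+ array, as for *Hoxb1*. Those of *Hoxd10* and *Hoxc10*, called in the mock and mutant lines, exceeded it only on OHT+ arrays of these lines. The counts thus rest partly on genes that entered the test through arrays where they were high. Counts without these genes were not made. The median change in the mock line was 2.25 in *HoxD*, 1.76 in *HoxA* and 1.04 in *HoxC*, against 1.07 in HoxB (1.20 without *Hoxb1*). The mutant lines had medians of 1.46, 0.44 and 0.51, against 0.27. The difference between clusters was not tested. *Hoxd1* rose by 2.25 in the mock line, by 2.15, 2.32 and 2.04 in the mutant lines, and by 0.80 and 0.69 in the WT lines. *Hoxa10* had the largest mock change of these clusters, 2.90. Its changes were 2.04, 2.19 and 2.22 in the mutant lines and -0.13 and 0.41 in the WT lines. Of 8 TALE cofactor genes, whose products bind DNA together with HOX proteins, 1 passed in the mutant lines, against 4.91% of all genes called higher. This was *Meis1*, with a rise of 0.77. None passed in the mock line, against 1.29%, and *Meis1* had a change of 1.15 there (adjusted p = 0.0754 in limma). The upstream list held 17 measured genes of retinoid signalling and other regulators of HoxB. Of these, 2 passed in the mock line and 3 in the mutant lines, against 1.29% and 4.91% of all genes called higher. *Crabp1*, which binds retinoic acid, and *Cdx1*, an activator of posterior *Hox* genes, rose in both classes, by 2.36 and 1.95 in the mock line. Of the 17, 10 had a mock change above 0, against 50.5% of all genes, while *Rarg* and *Dhrs3* had -0.47 and -0.54. *Aldh1a2*, which makes retinoic acid, passed in the mutant lines only, with a rise of 1.53. Its mock change was 1.23 (adjusted p = 0.0947 in limma).

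Of the genes next to the cluster, 1 passed in the mutant lines, against 4.91% of all genes called higher and 1.55% lower. None passed in the mock line, against 1.29% and 0.383%. Of the 5 nearest measured genes on the *Hoxb13* side and the 5 on the *Hoxb1* side, the median changes in the mock line were -0.09 and 0.00. *Calcoco2*, an autophagy receptor gene on the *Hoxb13* side, rose by 0.72 in the mutant lines (adjusted p = 0.0137 in limma), where the mock line had -0.22 and the WT lines had 0.35 and 0.52.

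**Figure D4:**
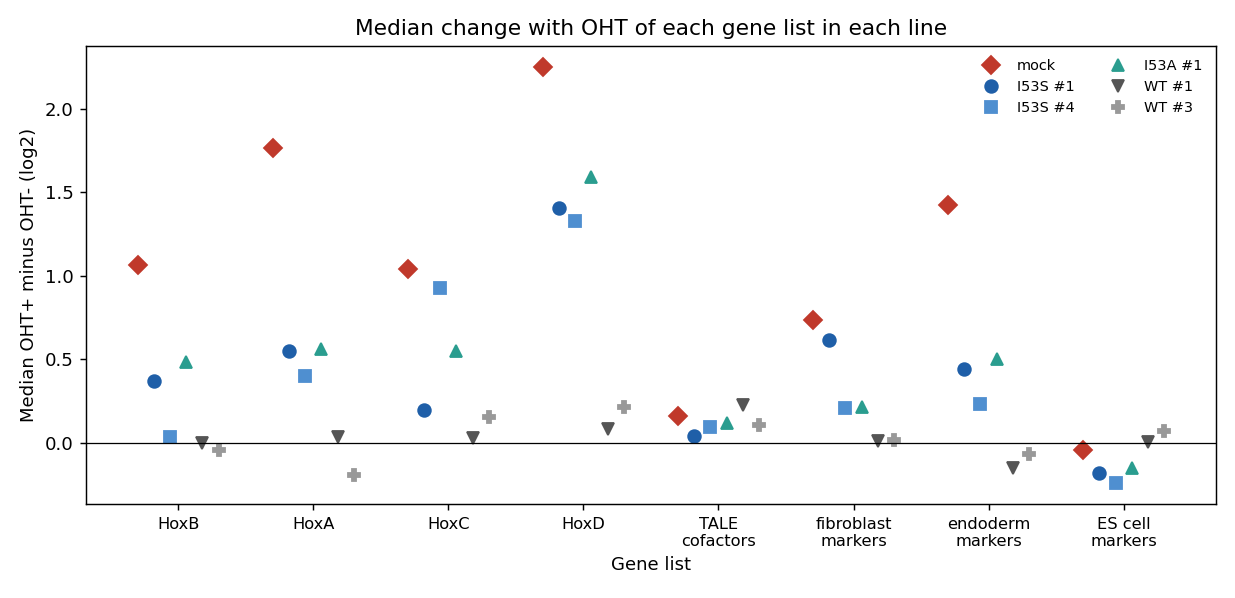
Median change with OHT (y axis, log2) over the measured genes of each list (x axis), 1 point per line. HoxB has 1.07 in the mock line (1.20 without *Hoxb1*, not drawn) and between 0.03 and 0.48 in the mutant lines. The fibroblast and endoderm markers are also highest in the mock line.

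Markers of other cell types were measured on the same arrays. The 15 measured fibroblast markers had a median change of 0.73 in the mock line (15 of 15 above 0), 0.62, 0.21 and 0.21 in I53S #1, I53S #4 and I53A #1, and 0.01 and 0.02 in the WT lines. Their mean log2 signal was 7.37 with OHT and 6.64 without in the mock line, between 6.25 and 7.20 with OHT and between 6.12 and 6.53 without in the mutant lines, and 5.66 and 6.18 with OHT and 5.75 and 6.14 without in the WT lines. *Thy1* rose by 1.32 in the mock line. For the 5 endoderm markers the median change was 1.42 in the mock line, 0.44, 0.23 and 0.51 in the mutant lines, and -0.15 and -0.07 in the WT lines. The 4 measured mesoderm markers had 0.63 in the mock line, 0.70, 0.41 and 0.25 in the mutant lines, and 0.13 and -0.15 in the WT lines. The 4 measured neural markers had 0.25, then 0.29, 0.11 and 0.06, and -0.19 and -0.03. The part of these cell types in the HoxB values was not tested.

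Among 2216 genes whose 6 changes had an SD of at least 0.5, the 5 whose changes were most like the mean of the HoxB genes were *4933412E24Rik* (Pearson's r = 0.98 over 6 lines), *Fpr2*, *Slc38a5*, *Trim29* and *Gata6* (r = 0.96 to 0.97). The values share their lines and arrays, and r is given as a description. *Gata6*, an endoderm transcription factor gene, had a mock change of 1.80, with 0.45, 0.54 and 0.58 in the mutant lines and 0.34 and 0.17 in the WT lines.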

How the data were processed

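Each array was deposited as log2 signals, 1 for every probe set. The labels credit Affymetrix Expression Console and RMA, with no version, whereas the study's supplement describes MAS5 signals with quantile normalization, so how the deposited log2 values were made is not settled. Array medians ran from 4.66 to 5.67, and quantile normalization was applied here. Probe sets with 1 symbol whose highest signal exceeded 3.94 (percentile 30 of all values) were averaged per gene. The 12 arrays were fitted with limma 3.58.1 in R 4.3.3 (lmFit, eBayes, two-sided; 3 residual and 2.79 prior degrees of freedom) with a term for each line and 1 OHT effect per class, and genes were called at an adjusted p under 0.05. The block pairs the 2 arrays of a line, whose deviations from their class mean correlated at 0.27 to 0.43. Values before OHT came from a separate fit of the OHT- arrays alone, with 1 mean per class and no line term. The fit was tested on simulated data. P-values measure the spread between these lines, without replicate cultures, and precision is limited by the number of arrays. Members and lists were chosen with earlier results of these data known. All 9 members are named, and from other lists only some genes, not always those with the largest changes. Detection calls and raw scans were not used here. Alternatives were other scalings and filters, no block, other priors, 1 probe set per gene, a further fold condition and each line left out.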

Additional observations from a re-analysis of the deposited data

Results flagged for a closer look

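The probe set of *Hoxb5os*, the antisense transcript at *Hoxb5*, was fitted among all genes but is not one of the members. It was flagged by a rule that the mock change exceed both WT changes, which 38% of all genes met. Its change was 0.47 in the mock line, and -0.46 and 0.30 in WT #1 and WT #3. In I53S #1, I53S #4 and I53A #1 it had changes of 0.84, 0.56 and 0.55. These lay above both WT lines as well, as for 16.1% of all genes.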

How the results depend on the processing

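Of 425 values of single members under the alternatives, 393 kept their direction and their side of the threshold. Many of them could not change in size. The mock change is fixed when another line is left out, with no block or with other priors. The further fold condition reused the main fit. Apart from *Hoxb6* in the mock line and *Hoxb13* in the mutant lines, none was called in the main fit. The count is therefore no measure of robustness. With values as deposited, the median of all genes was -0.34 in the mock line and -0.13 in the mutant lines, so changes there are to be read against these shifts, and 175 genes were higher and 747 lower in the mock line (212 and 63 after quantile normalization) and 540 and 571 in the mutant lines (807 and 255). The number of HoxB members called in the mock line was 2 with values as deposited, 3 with arrays centred on their medians, 2 with no replicate block, 4 with trended and robust priors, and 0 with only I53S lines in the mutant class. It was 0 to 0 with a line left out. The filter on the mean left only *Hoxb2* to test. In the mock line *Hoxb2* was then called in place of *Hoxb6*, so the count of 1 stayed while the gene changed. In the mutant lines the number was 0 with this filter, 0 with the I53S lines alone, and 0 to 1 with a line left out. For mock minus WT lines, trended and robust priors called 2, *Hoxb13* and *Hoxb2*. Without the pairing by line, no other count of members changed. Over all genes, the counts called higher and lower were 87 and 10 in the mock line and 486 and 77 in the mutant lines with no replicate block, 814 and 526, then 1365 and 854 with trended and robust priors, and 555 and 328, then 1088 and 689 with the filter on the mean. With a line left out they were 0 in the mock line and 144 to 610 higher in the mutant lines. The 0 calls over all genes also became 42 and 5 (filter on the mean) or 194 and 78 (trended priors) for mutant minus WT lines, and 12 and 5 or 276 and 177 for mock minus WT lines. Before OHT they became 41 and 0 with values as deposited. Signs turned with values as deposited for *Hoxb3* and *Hoxb7* in the mock line (-0.095 and -0.070) and for *Hoxb4*, *Hoxb6* and *Hoxb7* in the mutant lines (-0.17, -0.20 and -0.040), with centred arrays for *Hoxb4* and *Hoxb6* (-0.036 and -0.060), with the brightest probe set for *Hoxb3* (-0.12), and with only I53S lines in the mutant class for *Hoxb5* and *Hoxb6* (-0.22 and -0.10). With a line left out, the mutant value ran from -0.13 to 0.20 for *Hoxb4*, from -0.22 to 0.58 for *Hoxb5* and from -0.10 to 0.085 for *Hoxb6*. The cause was not tested.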

Other observations

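The probe set annotated to both *Hoxb8* and *Hoxb7*, which cannot be assigned to either gene, had a change of -1.28 in the mock line, where it read 3.63 on the OHT+ array against 4.91 on the OHT- array. In the mutant lines it had changes of -0.12, 0.43 and 0.08, and in the WT lines of 0.09 and 0.15. The mock OHT- array was the highest of the 12, and the other 11 lay between 3.32 and 3.93.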
